A study of Mus musculus with 2 samples.

Results

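The genes described here are 42 markers of the dividing cell, 17 for S phase and 25 for G2 and mitosis (G2/M), among the 27998 genes counted. They were chosen by symbol, and each was followed in 6 kinds of immune cell at 2 ages. The cells had been sorted for CD45.1, the form of the leukocyte surface protein CD45 carried by this strain, out of the islets of the pancreas of NOD/ShiLtJ females. NOD mice develop autoimmune diabetes without any treatment, and immune cells gather in the islets before it appears. A single-cell library (10x Genomics Chromium, 3′ chemistry) was made at 7 weeks of age and 1 at 12 weeks, and the number of mice behind each is not stated. With 1 library per age no difference between the ages can be tested. The 95% intervals given below reflect counting error alone and hold nothing of the variation among animals or libraries. Those on UMI counts also take each UMI as independent, though UMIs of 1 cell are not, so they leave out variation among cells.

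A dividing cell prepares its DNA replication origins in G1, copies its DNA in S phase, and separates the copies in mitosis after a G2 gap. Transcripts for replication are made from late G1 onwards, under E2F transcription factors, and transcripts for mitosis accumulate later, through promoters with elements called CHR and CCAAT boxes. In the islets of NOD mice, T cells and B cells that recognise beta cell proteins can divide after meeting antigen. Their transcripts are widely used to tell cycling from resting cells.

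Of 1113 barcodes at 7 weeks and 2812 at 12 weeks, 1099 and 2742 cells were kept, with medians of 5643 and 4946.5 unique molecular identifiers (UMIs, each standing for 1 captured transcript). The libraries shared 2 barcode sequences. CD8 T cells held at least 2 UMIs of Cd8a and Cd8b1 and none of Cd4 (161 and 453 cells). CD4 T cells held at least 1 Cd4 UMI and none of Cd8a or Cd8b1 (328 and 800 cells). T cells with Foxp3, whose product defines regulatory T cells, detected by at least 1 UMI numbered 70 and 101, of which 42 and 57 were also CD4 T cells. B cells held at least 2 UMIs of Cd79a (167 and 622 cells), and 67 and 62 cells held a UMI of the natural killer receptor gene Ncr1. The myeloid gate took cells with at least 10 UMIs of the complement genes C1qa, C1qb and C1qc or at least 10 of Cst3 (63 and 193 cells). T cells also had to hold a UMI of Cd3d, Cd3e or Cd3g, and the 64 and 93 cells that fell in more than 1 lineage entered no class. Cd3e was detected in 93.2% and 90.7% of the CD8 T cells and Ms4a1, which encodes CD20, in 92.2% and 97.6% of the B cells. In the Ncr1 class Cd3g was detected in 65.7% and 80.6% of the cells, Cd3d in 67.2% and 77.4% and Cd3e in 41.8% and 53.2%. Of the other T cell markers, Cd28 was detected in 41.8% and 46.8% and Cd5 in 7.46% and 1.61%. Whether the class held cells other than natural killer cells was not tested. The myeloid gate was mixed: C1qa was detected in 23.8% and 22.8% of its cells and Flt3, a receptor of dendritic cells, in 57.1% and 56.0%.

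Of the 3 classes with most cells, CD8 T cells had the highest summed levels of the 42 genes, CD4 T cells lower and B cells the lowest, at both ages. In CD8 T cells the S genes made 12.2 UMIs per 10000 UMIs at 7 weeks (95% Poisson interval 11.7 to 12.9) and 13.5 at 12 weeks (13.1 to 13.9). The G2/M genes made 18.3 (17.6 to 19.1) and 18.4 (18.0 to 18.9). In CD4 T cells the S genes made 8.23 and 8.47 per 10000 and the G2/M genes 10.7 and 11.8. In B cells the S genes made 3.75 and 4.71 and the G2/M genes 4.20 and 4.05. Taken gene by gene, the level was higher in CD8 than in CD4 T cells for 42 of 42 genes at 7 weeks and for 41 of 42 at 12 weeks, the exception being Hmmr, which encodes a spindle protein. It was higher in CD8 T cells than in B cells for 42 of 42 at both ages. CD4 T cells lay above B cells for 40 genes at 7 weeks, all but Ccne2 and Cdc6, and for 41 at 12 weeks, all but Ccne1. The genes are read in the same cells, so these counts are not independent observations.

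Because deep cells show more UMIs of every gene, the share of cells with at least 5 UMIs of the 42 genes was taken after thinning each cell to 3000 UMIs. This left out 53 of the 1099 cells at 7 weeks and none at 12 weeks. The share in CD8 T cells was 23.5% at 7 weeks (exact binomial interval 17.1 to 31.1%) and 18.1% at 12 weeks (14.7 to 22.0%). Among CD4 T cells it was 11.7% (8.41 to 15.8%) and 10.2% (8.24 to 12.6%). In B cells it was 3.73% (1.38 to 7.94%) and 3.05% (1.85 to 4.73%). CD8 T cells exceeded CD4 T cells by 11.8 percentage points at 7 weeks (Newcombe interval 4.54 to 19.7) and by 7.85 at 12 weeks (3.85 to 12.1). CD4 T cells exceeded B cells by 8.02 points (2.83 to 12.5) and 7.20 points (4.66 to 9.74). None of these 4 intervals includes 0, so the order of the 3 classes was larger than the counting error. In Foxp3+ T cells the share was 16.9% (8.76 to 28.3%) and 16.8% (10.1 to 25.6%). They exceeded the CD4 T cells without Foxp3 by 5.97 points at 7 weeks (-2.39 to 17.3) and by 6.74 at 12 weeks (0.239 to 15.4). Only the 12 week interval excludes 0, and it comes close to it. No such difference was taken between Foxp3+ and CD8 T cells. In the Ncr1 class the share was 4.62% at 7 weeks and 0 of 62 cells at 12 weeks, where the exact upper limit is 5.78%. The myeloid gate gave 3.17% (0.387 to 11.0%) and 10.9% (6.86 to 16.2%).

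**Figure D1:**
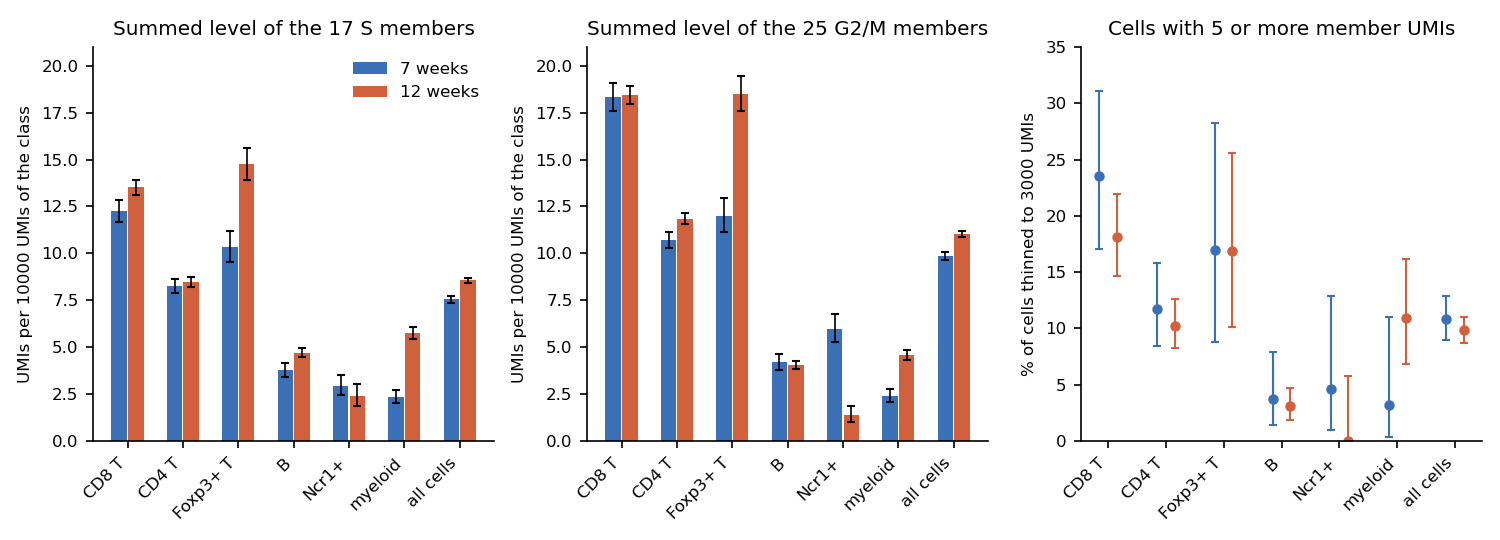
Left and middle, summed level of the 17 S and the 25 G2/M genes in UMIs per 10000 UMIs of the class, by cell class (bars from 0, blue 7 weeks, red 12 weeks, error bars 95% Poisson intervals). Right, percentage of cells with at least 5 UMIs of the 42 genes after thinning to 3000 UMIs, with exact binomial 95% intervals. CD8 T cells stand at 23.5% and 18.1% and B cells at 3.73% and 3.05%.

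The level of a class was set by few cells. Cells with at least 20 UMIs of the 42 genes were 8.37% of all cells at 7 weeks (92 cells) and 8.17% at 12 weeks (224 cells), and they carried 81.6% and 83.5% of these UMIs. Among CD8 T cells, 28 of 161 and 70 of 453 cells reached 20 UMIs and carried 89.7% and 89.8% of them. Among B cells, 5 of 167 and 15 of 622 cells carried 63.9% and 63.0%. The single highest cell was a CD8 T cell at 12 weeks with 726 such UMIs, 159 of S genes and 567 of G2/M genes. Cells with at least 20 UMIs were deep, with a median of 17102 UMIs at 7 weeks and 15271 at 12 weeks, against 5210 and 4628 in cells under 5. At the other end, 63.3% and 65.8% of all cells held 1 to 4 UMIs of the 42 genes.

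**Figure D2:**
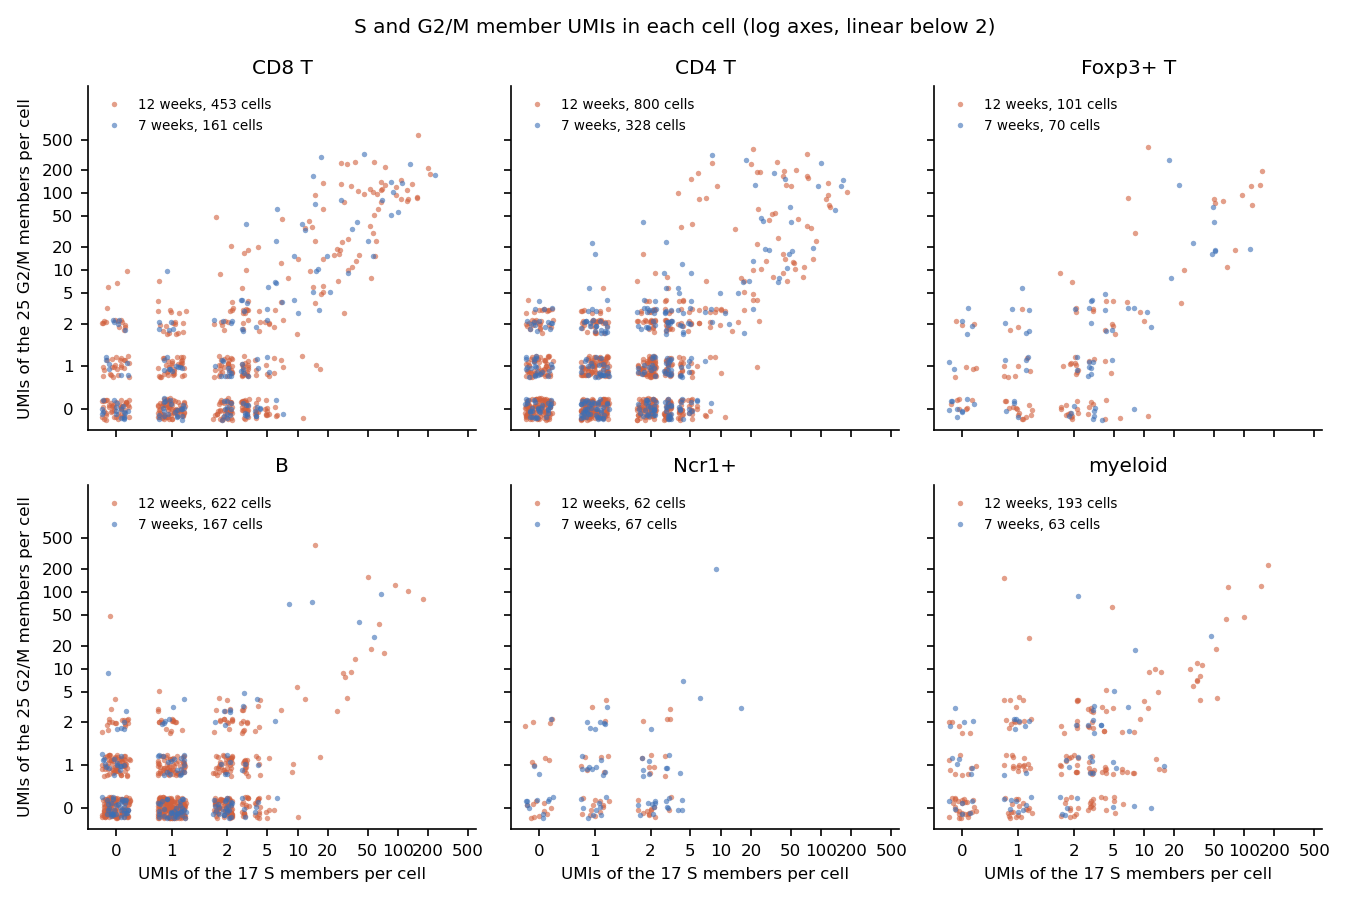
Each point is a cell, with its UMIs of the 17 S genes across and of the 25 G2/M genes upward, on log axes that are linear below 2, with a small random offset. Most cells sit near 0 on both axes. The few cells with at least 20 UMIs fall along a band from S-rich to G2/M-rich, widest in CD8 and CD4 T cells and nearly empty in the Ncr1 class, where 1 cell at 7 weeks held 209 UMIs.

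Between the ages, the share of cells with at least 5 UMIs differed in no class by more than its counting interval. The 12 minus 7 week difference was -5.43 percentage points in CD8 T cells (-13.4 to 1.70), -1.50 in CD4 T cells (-5.95 to 2.36), -0.0914 in Foxp3+ T cells (-12.6 to 11.0) and -0.672 in B cells (-4.98 to 1.94). It was -4.62 in the Ncr1 class (-12.7 to 1.96) and 7.71 in the myeloid gate (-0.800 to 13.4). These intervals are wide, so a difference of several points in either direction was not detectable with these cell numbers. Without thinning, the CD4 T share was 28.7% at 7 weeks and 19.8% at 12 weeks, beside medians of 5636 and 4630 UMIs per cell.

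Summed levels at 12 weeks over those at 7 weeks stood near 1 in CD8 T cells, at 1.10 for the S genes (1.04 to 1.17) and 1.01 for the G2/M genes (0.960 to 1.06). For CD4 T cells they were 1.03 (0.974 to 1.09) for the S genes and 1.11 (1.06 to 1.16) for the G2/M genes. As a mean over cells the G2/M genes of CD4 T cells stood at 5.99 and 5.66 per 10000, which turned the direction. The ratios of the sums were higher in Foxp3+ T cells, 1.43 (1.29 to 1.58) and 1.54 (1.41 to 1.69), where the S genes went from 10.3 to 14.8 and the G2/M genes from 12.0 to 18.5 per 10000. That class had 10 cells with at least 20 UMIs at 7 weeks and 15 at 12 weeks. Averaged over cells rather than over UMIs, its log2 ratios were 0.18 for the S genes and 0.10 for the G2/M genes, against 0.51 and 0.63 from the sums. In B cells the ratio was 1.25 for the S genes (1.12 to 1.41) and 0.965 for the G2/M genes (0.863 to 1.08). The S ratio of B cells turned when cells with markers of another lineage were kept, to 6.48 per 10000 at 7 weeks and 5.39 at 12 weeks. In the Ncr1 class the G2/M genes stood at 5.96 per 10000 at 7 weeks and 1.39 at 12 weeks, a ratio of 0.234 (0.165 to 0.324). A cell with 200 G2/M UMIs made most of the 7 week value, and without the 5 highest cells of each library the levels were 1.04 and 1.03.

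The myeloid gate had the largest ratios under the gates used here, 2.43 for the S genes (2.10 to 2.84) and 1.88 for the G2/M genes (1.62 to 2.20), from 2.36 to 5.74 and from 2.42 to 4.56 per 10000. Markers of other cells differed between the ages in the same gate. Macrophage markers made 48.0 and 71.4 per 10000, dendritic cell markers 4.64 and 2.89, endocrine markers 71.0 and 212 and acinar markers 0.229 and 0.971. Of the endocrine UMIs at 12 weeks, 50163 of 50685 lay in 4 cells, and without cells rich in endocrine or Cd3 UMIs the G2/M log2 ratio was 0.55. The part of the gate's makeup in the ratios was not tested. The gate held 3 cells with at least 20 UMIs at 7 weeks and 21 at 12 weeks. Of these, 0 and 2 met the C1q part of the gate, and 3 and 17 carried Flt3, so most of them entered the gate through Cst3. At each age 2 of them held at least 3 UMIs of Xcr1, a chemokine receptor of type 1 conventional dendritic cells. Of the 21 cells, 1 held at least 5 Cd3 UMIs. A gate that asks for 10 UMIs also favours deep cells, and the gate's median depth was 12348 and 12089 UMIs against 5643 and 4946.5 in all cells. When all gates were read on cells thinned to 3000 UMIs, a choice made after seeing the data, the gate kept 43 and 103 cells. The S genes then stood at 2.80 and 3.92 per 10000, and the G2/M genes at 3.77 and 2.88, so the direction of the G2/M difference turned. With the gates read without the exclusion of cells of several lineages, the G2/M genes stood at 8.60 and 8.64.

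The S genes fall into groups by their task. The 6 Mcm genes encode the helicase loaded at replication origins. Together they made 5.28 UMIs per 10000 at 7 weeks and 6.57 at 12 weeks in CD8 T cells, 3.66 and 4.30 in CD4 T cells, and 1.77 and 2.48 in B cells. Their 12 over 7 week ratio was above 1 in each of these classes, 1.24 (1.14 to 1.36), 1.17 (1.08 to 1.27) and 1.40 (1.19 to 1.66). Pcna, the sliding clamp of the replication fork, lay the other way in the same classes. Its level was 207 CPM (UMIs per 1000000 UMIs) at 7 weeks and 181 at 12 weeks in CD8 T cells, 153 and 125 in CD4 T cells, and 89.2 and 76.6 in B cells. The Pcna ratio was 0.873 (0.756 to 1.01), 0.815 (0.714 to 0.931) and 0.859 (0.671 to 1.11), and only the CD4 T interval excludes 1. Without the 5 cells with most Pcna UMIs in each library the log2 ratios were 0.12, -0.08 and 0.40, so the direction of Pcna turned in CD8 T and B cells. The origin factors Cdc6, Cdc45 and Gins2 together made 0.584 and 0.767 per 10000 in CD8 T cells and 0.353 and 0.408 in CD4 T cells.

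Rrm1, Rrm2, Tyms and Tk1 supply the nucleotides of the new DNA. As a group they made 3.43 and 3.66 per 10000 in CD8 T cells, 2.25 and 2.12 in CD4 T cells and 0.595 and 0.959 in B cells. Rrm2, the regulated subunit of ribonucleotide reductase, stood at 136 CPM at 7 weeks and 138 at 12 weeks in CD8 T cells. In Foxp3+ T cells Rrm2 stood at 66.1 and 178, or 2.69 times (1.87 to 3.95), and 5 cells held 89.5% and 72.9% of the UMIs. In B cells Rrm2 stood at 8.21 and 37.7, or 4.60 times (2.26 to 10.9), and 5 cells held 82.2% of the UMIs at 12 weeks. Each of those large Rrm2 ratios thus describes a handful of cells. The E cyclins Ccne1 and Ccne2, partners of Cdk2 at the entry to S phase, were among the lowest S genes. Ccne1 stood at 38.2 CPM at 7 weeks and 18.6 at 12 weeks in CD8 T cells, a ratio of 0.487 (0.330 to 0.721), from 51 and 61 UMIs. The gene Uhrf1, which keeps DNA methylation through replication, made 0.411 and 0.442 per 10000 in CD8 T cells.

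The G2/M genes were led in UMIs by Stmn1, a tubulin-binding protein that destabilises microtubules. Stmn1 stood at 394 and 371 CPM in CD8 T cells, 183 and 189 in CD4 T cells, and 102 and 55.0 in B cells. It made 13.6% to 24.2% of the G2/M UMIs over the 6 classes and both ages. The B cell value at 7 weeks rested on 5 cells with 85.9% of the Stmn1 UMIs, and the ratio of 0.541 (0.422 to 0.698) turned when the 5 highest cells of each library were left out (0.154 and 0.270 per 10000). Ccna2, Ccnb1, Ccnb2 and Cdk1, the cyclins and kinase that drive mitotic entry, made 2.69 and 2.86 per 10000 in CD8 T cells, 1.44 and 1.57 in CD4 T cells and 0.410 and 0.547 in B cells. Ube2c and Cdc20, which help the anaphase promoting complex to destroy the cyclins, made 2.31 and 2.05 in CD8 T cells, 1.16 and 1.49 in CD4 T cells and 0.267 and 0.535 in B cells. Cenpa, the centromere histone, with Cenpe, Cenpf and the checkpoint gene Bub1b made 2.34 and 2.35 in CD8 T cells and 1.60 and 1.81 in CD4 T cells. Birc5 and Cdca8, of the chromosomal passenger complex, made 2.11 and 2.33 in CD8 T cells and 1.36 and 1.47 in CD4 T cells. The kinases Plk1, Aurka, Aurkb and Bub1 were the lowest group, with 0.860 and 0.862 in CD8 T cells and 0.479 and 0.499 in CD4 T cells. Every one of these groups lay higher in CD8 than in CD4 T cells at both ages.

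**Figure D3:**
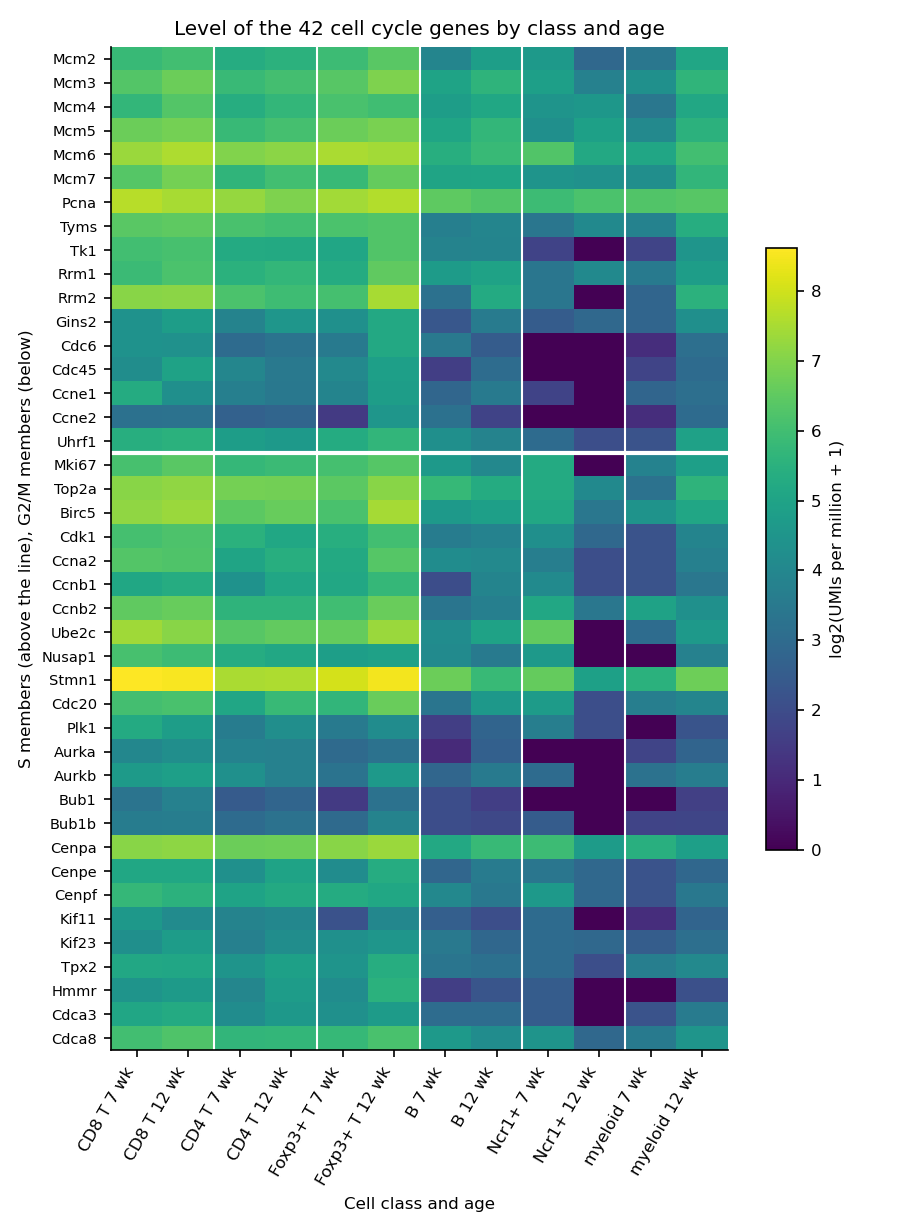
Level of each of the 42 genes, as log2(CPM + 1), in the 6 classes at 7 and 12 weeks, with S genes above the white line and G2/M genes below it. The 3 T cell classes on the left are brighter than B, Ncr1 and myeloid cells across nearly all genes. Stmn1, Pcna and Mcm6 are among the brightest rows in every class, and 16 of 42 genes had no UMI in the Ncr1 class at 12 weeks.

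Gene by gene, few of the 42 passed a 1.5 fold difference between the ages in CD8 T cells, and larger shares did in CD4 T and B cells. Among genes with at least 50 UMIs over both ages, 2 of 41 lay past 1.5 fold higher at 12 weeks in CD8 T cells (Cdc45 and Mcm4), where 5.4% of all genes did, and 1 lower (Ccne1), where 6.55% of all genes did. In CD4 T cells 6 of 40 lay higher, against 3.81% of all genes, and 0 lower, against 7.63%. They included Cdc20 at 33.2 and 54.6 CPM, Ccnb1 at 20.2 and 33.8, and Hmmr at 14.7 and 25.9. Those 3 genes act late in the cycle, from mitotic entry to the exit from metaphase. Between 72.9% and 80.0% of their 7 week UMIs, and between 41.0% and 45.5% of those at 12 weeks, came from 5 cells. In Foxp3+ T cells 12 of 25 lay higher, against 9.21% of all genes, and 0 lower, against 8.21%. In B cells 8 of 25 lay higher and 3 lower, against 10.5% and 7.01%. In the myeloid gate 18 of 21 lay higher and 2 lower, against 11.2% and 8.21%. No gene of the 42 reached 50 UMIs in the Ncr1 class, where 6.72% of the genes that did lay higher and 7.47% lower. Over all cells 3 of 42 lay higher, Cdc20, Ccnb1 and Hmmr, against 5.22% of all genes, and 0 lower, against 7.16%. Past 2 fold lay 1 gene in CD8 T cells (lower; 1.23% of all genes lay higher and 2.1% lower), 0 in CD4 T cells (0.87% and 2.23%), 5 in Foxp3+ T cells (higher; 2.2% and 2.58%), 3 in B cells (higher; 2.48% and 1.96%) and 0 in all cells (2.28% and 2.31%). With at least 20 UMIs asked of a gene, 21 of 37 lay past 1.5 fold higher in Foxp3+ T cells (12.9% of all genes higher and 13.2% lower). In B cells it was 14 higher and 6 lower of 36 (13.4% and 10.7%), and in the Ncr1 class 5 of 6 lower (12.3% and 12.6%). With the 5 highest cells of each library left out, the number past 1.5 fold went from 3 to 11 in CD8 T cells and from 6 to 15 in CD4 T cells. It went from 12 of 25 to 7 of 14 in Foxp3+ T cells and from 20 of 21 to 9 of 11 in the myeloid gate, as fewer genes kept 50 UMIs. With gates read on thinned cells it was 1 of 7 in the myeloid gate. With cells of several lineages kept it was 8 of 38 there, and in B cells 1 gene lay higher and 8 lower. The 5 cells were a larger share of the 7 week classes, 5 of 161 against 5 of 453 CD8 T cells. The share of all genes past 1.5 fold was not counted without the 5 cells or under the other gates. The counts under those settings are therefore no result about the 42 genes.

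The median log2 ratio over genes with at least 50 UMIs was 0.17 for the S and 0.08 for the G2/M genes in CD8 T cells, beside 0.03 for all genes. In CD4 T cells it was 0.16 and 0.18, beside 0.00. In Foxp3+ T cells it was 0.46 and 0.61, beside 0.05, in B cells 0.30 and 0.22, beside 0.09, and in the myeloid gate 1.62 and 1.04, beside 0.06.

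Summed over each class, T cells held more G2/M than S UMIs, from lists of 25 G2/M and 17 S genes. The S share thus depends on the makeup of the lists. With Stmn1 left out, S genes made 46.0% and 47.9% in CD8 T, 48.1% and 46.0% in CD4 T, and 52.6% and 49.6% in Foxp3+ T cells. The excess of G2/M UMIs thus turned in Foxp3+ T cells at 7 weeks. The values that follow include Stmn1. S genes made 40.1% of the UMIs of the 42 genes in CD8 T cells at 7 weeks (38.6 to 41.6%) and 42.3% at 12 weeks (41.4 to 43.3%). In CD4 T cells the S share was 43.5% and 41.7%, in Foxp3+ T cells 46.3% and 44.4%, and in B cells 47.2% and 53.8%. The 12 minus 7 week difference was 2.23 points in CD8 T cells (0.446 to 3.995), -1.80 in CD4 T cells (-3.55 to -0.0475), -1.90 in Foxp3+ T cells (-5.21 to 1.41) and 6.53 in B cells (2.58 to 10.5). Leaving out the 5 highest cells of each library gave 46.2% and 44.8% in CD8 T cells, which turned the difference, and 51.0% and 46.3% in CD4 T cells. In the CD4 T cells with at least 10 UMIs the mean over cells was 51.0% and 54.1%, which turned it too. The direction between the ages thus depended on how cells were weighed in both of these classes. In B cells S genes made more at 12 weeks under each of these weightings, with 63.2% and 69.4% without the 5 highest cells. As a mean over B cells with at least 10 UMIs they made 29.9 points more, from 5 cells at 7 weeks and 22 at 12 weeks. With cells of several lineages kept, the B cell difference was smaller than the lower bound of 2.58 points. In Foxp3+ T cells S genes made 67.6% and 54.8% without the 5 highest cells, more than the G2/M genes at both ages. Their S share was lower at 12 weeks under the same 2 weightings, with differences of -12.8 and -7.82 points. With the gates read on thinned cells, however, the difference was 9.50 points and with cells of several lineages kept 2.66. The Ncr1 class stood at 33.1% and 63.2%, and without its 5 highest cells at 69.4% and 68.5%. The myeloid gate stood at 49.4% and 55.8%, and without its 5 highest cells at 63.1% and 67.4%.

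The balance also differed by how many cell cycle UMIs a cell held. In cells with under 5 of these UMIs the S genes made 65.4% at 7 weeks and 67.7% at 12 weeks, and this share lay between 55.4% and 72.4% in every class. In cells with at least 20 it was 39.0% and 38.9%, against 37.0% and 39.4% in CD8 T cells and 38.9% and 35.5% in CD4 T cells. The low counts of most cells were thus mainly S transcripts. Free RNA in the droplets can give a cell single UMIs of genes it does not express, and its part in these low counts was not tested. Among the CD8 T cells with at least 20 UMIs, 4 of 28 and 13 of 70 had an S share over 66.7%, and 10 and 25 had one under 33.3%. Among CD4 T cells these numbers were 11 and 9 of 30 at 7 weeks, and 24 and 24 of 62 at 12 weeks. Cells between the bounds were 14 of 28 and 32 of 70 in CD8 T cells and 10 of 30 and 14 of 62 in CD4 T cells.

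**Figure D4:**
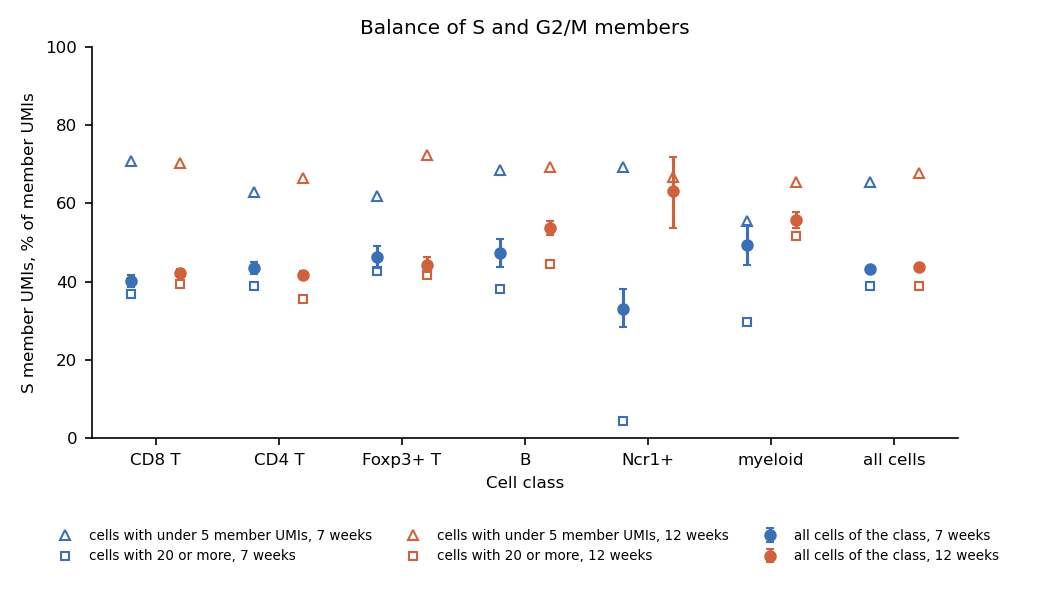
S gene UMIs as a percentage of the UMIs of all 42 genes, by class and age (blue 7 weeks, red 12 weeks). Filled circles are whole classes with exact binomial 95% intervals, triangles are cells with under 5 such UMIs and open squares cells with at least 20. Triangles lie above the circles and squares below them in every class that has them.

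Across single cells the G2/M genes varied together more closely than the S genes. Pearson's r of log-scaled levels over the 1099 and 2742 cells had a median of 0.51 and 0.57 over the 300 pairs of G2/M genes and 0.34 and 0.35 over the 136 pairs of S genes. Between an S and a G2/M gene the median was 0.26 at both ages. The cells share a library and differ in depth, so these values are descriptions. The closest S pair at both ages was Tk1 with Rrm2, at 0.71 and 0.67. The closest G2/M pair was Ccna2 with Nusap1 at 7 weeks, at 0.75, and Birc5 with Ccna2 at 12 weeks, at 0.80. Of the 9495 other genes with a UMI in at least 2% of cells, 2810417H13Rik followed the summed level of the 42 most closely, with r of 0.62 and 0.63. This is the symbol used in the files for the gene of the PCNA-associated factor PAF15. Next came Cks1b, a subunit of cyclin-dependent kinases, at 0.52 and 0.57, Asf1b, a histone chaperone, at 0.51 and 0.53, and Gmnn, which encodes the licensing inhibitor geminin, at 0.51 and 0.51. Ncapg, Hmgb2, Cep55, Lig1, Tacc3 and Clspn followed, with r from 0.46 to 0.52.

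Within the cells with at least 20 UMIs (92 and 224), each gene was set against the S share of the other 41. The Mcm genes lay at the S end, Mcm3 with r of 0.59 and 0.60, Mcm2 with 0.60 and 0.53, Mcm5 with 0.55 and 0.49 and Mcm6 with 0.46 and 0.56. Birc5 (-0.76 and -0.84), Ccnb2 (-0.74 and -0.79), Cenpa (-0.76 and -0.78), Ube2c (-0.61 and -0.77) and Cdc20 (-0.67 and -0.72) lay at the G2/M end. The 4 nucleotide supply genes had the lowest values of the S genes at both ages: Rrm2 had r of 0.00 and -0.25, Rrm1 -0.05 and -0.16, Tk1 0.11 and -0.01 and Tyms 0.08 and 0.04. Uhrf1 (0.13 and 0.19), Ccne2 (0.14 and 0.16) and Ccne1 (0.25 and 0.12) were also low, and Cdc45 was at 12 weeks (0.10). Mean levels of the 4 were highest in cells whose S share lay between 33.3% and 66.7%, as were those of Pcna, Mcm7, Cdc6, Gins2, Ccne1, Ccne2 and Uhrf1. Rrm2 stood there at a mean of 4.18 UMIs per 10000 at 7 weeks and 5.05 at 12 weeks. In cells above 66.7% Rrm2 stood at 1.44 and 0.585, and in cells below 33.3% at 2.29 and 3.28. Among the G2/M genes Stmn1 (-0.26 and -0.32) and Top2a, the topoisomerase that untangles sister DNA (-0.19 and -0.39), were closest to the middle with Aurkb and Bub1. Stmn1 stood at 6.22 and 6.81 in cells rich in S transcripts, 11.9 and 12.3 in those between, and 9.80 and 10.3 in those rich in G2/M transcripts. The order of the 42 genes was alike in the 2 libraries, as the plot of the order at 12 against 7 weeks shows. A gene of each list enters the share of the others through its co-varying partners, so the sign of most values follows from the lists.

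**Figure D5:**
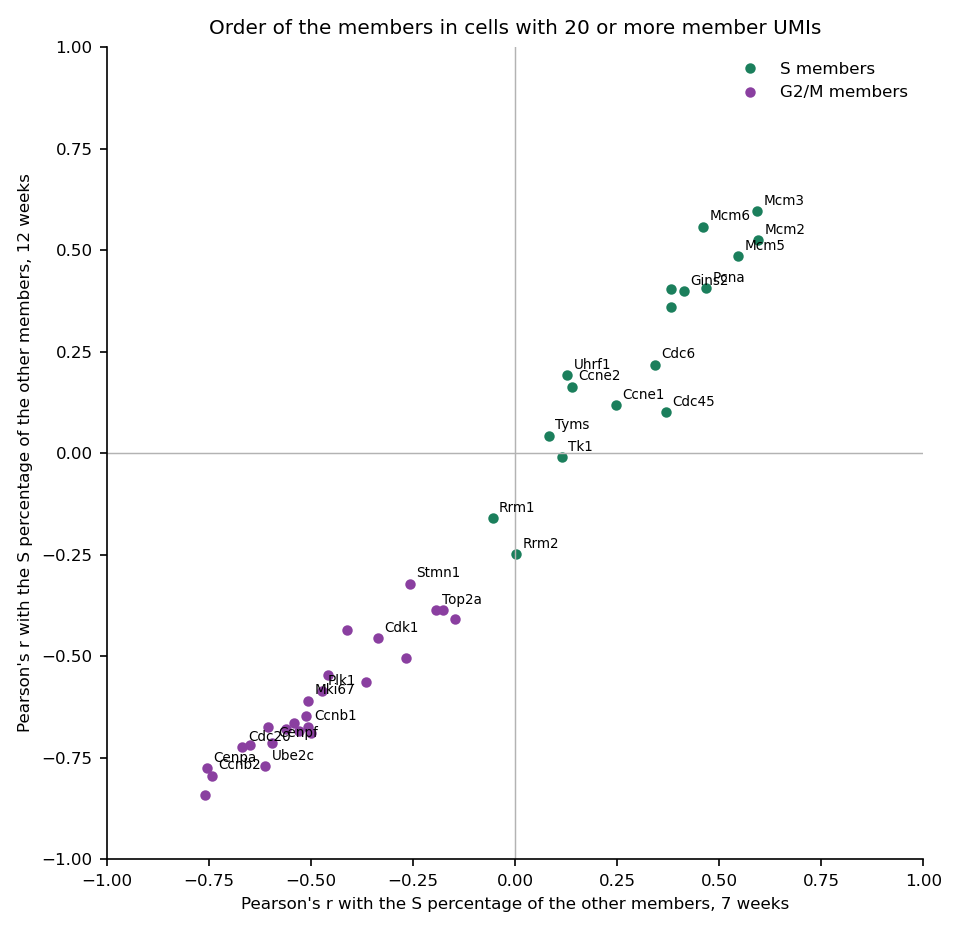
Each point is 1 of the 42 genes, placed by Pearson's r of its level with the S share of the other 41 genes in cells with at least 20 UMIs, at 7 weeks (92 cells, across) and at 12 weeks (224 cells, upward). S genes are green and G2/M genes purple. Mcm genes lie between 0.36 and 0.60, Rrm1, Rrm2, Tk1 and Tyms near 0, and Birc5, Ccnb2 and Cenpa near -0.8.

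The promoters of the genes carry the elements named above in unequal shares. The RefSeq promoter table used here holds 35 of the 42 genes on GRCm38.p6, the assembly that mm10 in the submitters' processing notes refers to (14 S and 21 G2/M genes). The window searched was 250 bases before to 50 after the start, on both strands. A CHR-type match (TTTGAA or TTTAAA) was present in 19 of 21 G2/M promoters (90.5%), all but Bub1 and Nusap1, in 6 of 14 S promoters (42.9%), and in 27.8% of the 27025 promoters of the table. CCAAT was present in 90.5% of the G2/M, 71.4% of the S and 37.9% of all promoters. An E2F-type match (TTTCGCG or TTTGGCG) was present in 4 of 14 S promoters (28.6%; Mcm3, Mcm5, Mcm6 and Mcm7), in 2 of 21 G2/M promoters (9.52%; Cdk1 and Cdca8), and in 2.39% of all. Among 26 matched mitosis genes outside the 42, 76.9% held a CHR-type match, and among 19 other replication genes 10.5% did, while 36.8% of the latter held an E2F-type match. Matches of different motifs overlapped once in the 35. GC content was a median of 57.7% in the G2/M and 57.3% in the S promoters, against 52.7% in all. A match is a description of the letters, not evidence of binding.

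The promoters of 5 genes are shown because they span the order seen in single cells, with Ccnb1, Ube2c and Cdk1 on the G2/M side and Pcna and Mcm6 on the S side. Each is the 250 bases before the start site, written 5′ to 3′ on the strand of the gene, with every match to one of the 3 motifs, on either strand, in capitals. The pieces are Ccnb1 at chr13:100786487-100786736 (minus strand), Ube2c at chr2:164769679-164769928 (plus strand), Cdk1 at chr10:69352913-69353162 (minus strand), Pcna at chr2:132253181-132253430 (minus strand) and Mcm6 at chr1:128359706-128359955 (minus strand), all on GRCm38.p6.
Ccnb1: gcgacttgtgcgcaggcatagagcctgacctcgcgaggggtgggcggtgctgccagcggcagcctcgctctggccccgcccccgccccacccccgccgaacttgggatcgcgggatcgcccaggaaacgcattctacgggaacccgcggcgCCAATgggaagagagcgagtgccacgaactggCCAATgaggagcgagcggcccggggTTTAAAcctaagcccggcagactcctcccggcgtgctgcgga
Ube2c: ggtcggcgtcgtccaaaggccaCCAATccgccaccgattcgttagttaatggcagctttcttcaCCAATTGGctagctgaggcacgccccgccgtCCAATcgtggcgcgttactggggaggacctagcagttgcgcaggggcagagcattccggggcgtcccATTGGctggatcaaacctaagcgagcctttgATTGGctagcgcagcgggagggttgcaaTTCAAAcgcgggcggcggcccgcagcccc
Cdk1: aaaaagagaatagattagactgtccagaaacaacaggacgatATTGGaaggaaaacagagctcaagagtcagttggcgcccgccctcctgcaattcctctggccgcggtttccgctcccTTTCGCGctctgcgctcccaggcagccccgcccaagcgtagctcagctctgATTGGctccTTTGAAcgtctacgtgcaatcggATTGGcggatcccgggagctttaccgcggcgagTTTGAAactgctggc
Pcna: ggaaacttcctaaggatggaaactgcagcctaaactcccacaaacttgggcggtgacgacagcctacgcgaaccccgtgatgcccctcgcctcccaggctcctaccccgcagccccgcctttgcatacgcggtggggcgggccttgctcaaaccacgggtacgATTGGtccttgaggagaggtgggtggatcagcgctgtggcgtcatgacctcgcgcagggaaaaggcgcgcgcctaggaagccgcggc
Mcm6: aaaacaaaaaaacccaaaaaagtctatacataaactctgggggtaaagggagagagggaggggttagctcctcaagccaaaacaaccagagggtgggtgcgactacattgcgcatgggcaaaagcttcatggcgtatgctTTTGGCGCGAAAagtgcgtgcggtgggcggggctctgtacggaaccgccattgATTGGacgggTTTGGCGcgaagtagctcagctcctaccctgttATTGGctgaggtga
In the Ccnb1 piece 2 CCAAT boxes are followed by a CHR-type match from -42 to -37. In the Ube2c piece the CHR-type match lies on the other strand from -29 to -24, downstream of 6 CCAAT matches. Cdk1 holds 2 CHR-type matches, from -71 to -66 and from -15 to -10, 3 CCAAT matches and an E2F-type match from -131 to -125. Mcm6 holds E2F-type matches at 3 positions and no CHR-type match, and Pcna a single CCAAT match and neither of the others. Cdk1, with matches to all 3 motifs, had r of -0.34 and -0.46 in the single-cell order, weaker than most G2/M genes.

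Other genes of the cycle, from lists fixed by function, followed the 42 where they serve replication or mitosis. The 25 other replication genes, such as Dut, Slbp and Lig1, made 12.5 and 13.5 UMIs per 10000 in CD8 T cells, 8.36 and 8.38 in CD4 T cells and 5.38 and 5.89 in B cells. Their 12 over 7 week ratio was 1.07 (1.02 to 1.14), 1.003 (0.950 to 1.06) and 1.10 (0.996 to 1.21). In Foxp3+ T cells it was 1.55 and in the myeloid gate 1.85, as for the 42 genes. Of the 22 replication genes with at least 50 UMIs in CD8 T cells, 1 lay past 1.5 fold higher and 0 lower. The 30 other mitosis genes, such as Smc4 and Cks1b, made 14.7 and 15.2 in CD8 T cells and 10.4 and 10.9 in CD4 T cells, and 1 of 23 lay higher and 1 lower in CD8 T cells. The replication list made 20.05 UMIs per 10000 at 7 weeks and 23.9 at 12 weeks in CD8 T cells with at least 5 UMIs of the 42 genes, against 3.63 and 3.65 in those with none. Lig1, which seals Okazaki fragments, is an example but no separate support, since it is among the 10 genes that followed the 42 most closely. In CD8 T cells with at least 5 UMIs of the 42 genes Lig1 stood at 166 CPM at 7 weeks and 195 at 12 weeks, against 0 and 4.74 in cells with none.

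The G1 list of D cyclins and their kinases did not follow as a sum. In CD8 T cells it made 7.26 and 7.04 per 10000 in cells with at least 5 UMIs of the 42 genes and 7.92 and 8.73 in cells with none. Its members lay in opposite directions. Cdk4, a kinase of G1, stood at 247 and 228 CPM in the former and 66.0 and 71.2 in the latter, while Ccnd2, a D cyclin, stood at 159 and 184 against 451 and 380. Among CD4 T cells Cdk4 stood at 163 and 188 against 69.2 and 94.9, and Ccnd2 at 452 and 401 against 664 and 567. B cells differed in Ccnd2, which stood at 386 and 308 against 146 and 208. Among the inhibitors, Cdkn2c (p18) stood at 66.3 and 57.5 against 6.92 and 17.6 in CD4 T cells, from 1 and 8 UMIs in the cells with none, whereas Cdkn1b (p27), a brake of resting cells, stood at 36.4 and 52.7 against 104 and 92.7. The transcription factor genes Mybl2 and Foxm1, which act on mitotic promoters, had 22 and 57, and 11 and 23, UMIs in the former CD8 T cells and none in the latter. The compared cells differed in depth, with medians of 9504 and 8826 UMIs against 5304 and 4748 in CD8 T cells. The groups are small at the low end, 18 and 44 CD8 T cells.

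B cells with at least 5 UMIs of the 42 genes (16 and 52 cells) were set against B cells with none (36 and 107 cells). Of these 2 groups, Gcsam and S1pr2, markers of germinal centre B cells, were detected in the former alone. Gcsam had 5 UMIs at 7 weeks and 21 at 12 weeks against 0 and 0, and S1pr2 had 1 and 22 against 0 and 0. Over all B cells S1pr2 had 5 and 26 UMIs, so some lay in B cells of neither group, and at 7 weeks most did. Gcsam was detected in only 1.20% and 0.482% of all B cells. Mef2b, a further marker of germinal centre B cells, had no UMI in any B cell. The compared cells differed in depth, with medians of 10320 and 7960.5 UMIs against 4272.5 and 4377. Plasma cell markers stood at 6.63 and 33.0 per 10000 in the former and 6.04 and 19.995 in the latter. The general B cell markers stood at 42.1 and 39.7 against 61.4 and 69.5. T cell markers stood at 1.59 and 1.56 against 0.976 and 0.526, and the part of mixed droplets in these B cells was not tested.

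CD4 T cells with at least 5 UMIs of the 42 genes carried more regulatory T cell transcripts than those with none. Foxp3, Il2ra, Ikzf2, Ctla4 and Tnfrsf18 together made 8.76 and 8.37 UMIs per 10000 in CD4 T cells with at least 5 UMIs of the 42 genes, against 4.91 and 5.23 in those with none. Ikzf2, which encodes Helios, stood at 344 and 317 CPM against 194 and 170, and Ctla4 at 250 and 178 against 131 and 88.2. Over all CD4 T cells the list made 8.62 and 7.58 per 10000. At 7 weeks that was close to the level of the cells with at least 5 UMIs. The cells with none were few, 30 and 105. The compared CD4 T cells differed in depth, with medians of 9493 and 8615.5 UMIs against 4804 and 4127. In CD8 T cells the Cd8 genes stood at 13.2 and 15.5 against 11.4 and 13.6 per 10000.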

How the data were processed

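The authors deposited, for each of the 2 libraries, whole-number counts of UMIs per gene and barcode, not normalized. Cell Ranger 1.3.1 and build mm10 come from the submitters' processing notes. The annotation used for counting is not given in the sources used here. Total counts were 8701184 at 7 weeks and 19288252 at 12 weeks. Barcodes with under 200 genes or over 10% mitochondrial UMIs were removed (4 and 8). Simulated doublets (2 per barcode, 30 principal components) gave a score, and the highest scores were removed up to a loading rate of 0.8% per 1000 barcodes (10 barcodes, and 62 at 12 weeks). Of the marked barcodes, 1 and 12 held at least 20 UMIs of the 42 genes. UMIs were summed per class, with exact Poisson, conditional binomial and Newcombe intervals. Levels are per total UMIs and not per length, since the 3′ kit counts transcript ends. The ratio and share intervals and the 1.5 fold rule were tested on simulated independent counts (Python 3.11.15, numpy 2.4.6, scipy 1.17.1, pandas 2.3.3, scikit-learn 1.9.0, matplotlib 3.10.9). Such counts hold no variation among cells, and the gates, doublet removal and balance were not tested in this way.

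The genes, lists and classes were chosen with earlier results of these data known. The groups of genes by task were made after seeing values. Named genes were, per class, the 5 S and 5 G2/M genes with most UMIs and up to 3 on either side whose ratio interval lay furthest from 1. Some of them are left to the counts. From other lists up to 4 genes with most UMIs were to be named. Cdkn2c, Foxm1 and the marker genes given beside their lists fall outside it and were chosen after their values were seen. Protein sequences were not used here. A marker of 1 list and the sum of that list are not reported here.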

Additional observations from a re-analysis of the deposited data

Results flagged for a closer look

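The 12 over 7 week ratio of the G2/M genes lay above 1 in CD4 T, Foxp3+ T and myeloid cells and below 1 in the Ncr1 class, with intervals on opposite sides of 1. The ratio in CD4 T cells was 4.74 times that of the Ncr1 class, that in Foxp3+ T cells 6.60 times and that in the myeloid gate 8.06 times. The CD4 T direction turned as a mean over cells (log2 -0.0821), and the myeloid one with gates read on thinned cells (3.77 and 2.88 per 10000). These differences were not tested, and 1 cell with 209 UMIs of the 42 genes made most of the 7 week level of the Ncr1 class.

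Signal was also present in cells that no class comparison used. At 7 weeks 10 cells of no class and 11 cells with markers of more than 1 lineage held at least 20 UMIs of the 42 genes. At 12 weeks these numbers were 28 and 19. Of the 11 and 19 cells, 6 and 4 held both at least 5 Cd3 UMIs and at least 10 of Cst3, and 3 and 4 held both at least 5 Cd3 UMIs and at least 2 of Cd79a. Whether these were pairs of cells was not tested.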

How the results depend on the processing

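No paired analysis was possible because each age has 1 library. The number of cells limits every value, and a few deep cells set most sums. Of the values of whole lists, shares and counts under other settings, 153 kept their size, 66 moved and 6 turned, and of those of single genes 39, 35 and 3. All log2 ratios and differences are 12 over, or minus, 7 weeks. Without the 5 cells with most UMIs of the 42 genes, the S log2 ratio was 0.33 in CD8 T, 0.26 in CD4 T, 0.85 in B and 0.30 in all cells. The G2/M log2 ratio was then 0.42 in CD8 T, 0.54 in CD4 T, 1.41 in Foxp3+ T, 0.45 in B, -0.0256 in Ncr1 and 0.21 in all cells. The S percentage difference was -1.48 in CD8 T and -0.877 in Ncr1 cells, which turned both, and -4.73 in CD4 T, -12.8 in Foxp3+ T and 1.60 in all cells. Genes past 1.5 fold were 11 in CD8 T, 15 in CD4 T, 7 in Foxp3+ T, 9 in myeloid and 5 in all cells. As means over cells, the S log2 ratio was 0.0209 in CD8 T, 0.18 in Foxp3+ T, 0.0714 in B and 0.12 in all cells. The G2/M log2 ratio was -0.0821 in CD4 T cells, which turned it, and 0.10 in Foxp3+ T, -0.60 in B, -0.85 in Ncr1, 0.58 in myeloid and 0.0330 in all cells. As means over cells with 10 or more UMIs, the S percentage difference was 3.11 in CD4 T cells, which turned it, and -7.82 in Foxp3+ T, 29.9 in B and 5.04 in all cells. With cells of several lineages kept and no Cd3 condition, the log2 ratios were -0.27 (S, turned) and -0.34 (G2/M) in B, 0.48 (G2/M) in Foxp3+ T, -1.40 (G2/M) in Ncr1, and 0.33 (S) and 0.00730 (G2/M) in myeloid cells. The S percentage difference was then 2.66 in Foxp3+ T and 1.31 in B cells, and 4 Ncr1 and 8 myeloid genes lay past 1.5 fold. With gates read on thinned cells, chosen after seeing the data, the S log2 ratio was 0.34 in CD8 T, 0.23 in CD4 T, 0.72 in Foxp3+ T and 0.49 in myeloid cells. The G2/M log2 ratio was 0.10, 0.95, 0.0867 and -0.39 in the same order, the last turned. The S percentage difference was -12.4 in CD4 T, 9.50 in Foxp3+ T and 15.04 in myeloid cells, with 9 CD8 T, 24 CD4 T, 7 B and 1 myeloid genes past 1.5 fold. At 2 fold the counts were 1 in CD8 T, 0 in CD4 T, 5 in Foxp3+ T, 3 in B and 0 in all cells. From 20 UMIs a gene they were 21 in Foxp3+ T, 20 in B and 5 in Ncr1 cells. Without doublet removal 1 gene lay past 1.5 fold in all cells. Without thinning the share difference was -8.91 in CD4 T and -3.29 in all cells, and at 3 or more UMIs 4.14 in B cells. Without Cd3-rich or endocrine-rich cells, also chosen after seeing the data, the myeloid G2/M log2 ratio was 0.55. Without the 5 cells with most of the gene's UMIs, the log2 ratio turned for Ube2c in CD8 T (0.45), Cdk1 in CD4 T (0.48) and Stmn1 in B cells (0.81). The S percentage of Ncr1 cells with 10 or more UMIs had no value, nor did 9 single genes without their 5 top cells. For the counts past 1.5 fold without the 5 cells, under other gates or without doublet removal, the share of all genes was not taken. The cause of these shifts was not tested.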

Other observations

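Cells outside the 6 classes also carried many UMIs of the 42 genes. Of the cells with at least 20, 10 at 7 weeks and 28 at 12 weeks met no gate, and 10 and 25 of these held at least 5 Cd3 UMIs. In 8 and 21 of them both Cd4 and Cd8 UMIs were present, which keeps a cell out of both T cell gates. Their median depth was 24457 and 14757 UMIs, and S genes made 43.9% and 39.7% of the UMIs of the 42 genes. In CD8 T cells with at least 20 it was 37.0% and 39.4%, and in such CD4 T cells 38.9% and 35.5%.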
